A study of Mus musculus with 20 samples.

Results

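The potassium channel genes described here are the mouse genes whose symbols consist of Kcn, further letters and a number. Of the 23413 gene symbols in the count tables, 92 had this form, and 78 of them were kept because they had 10 or more counts in at least 4 of the 20 libraries. Neither diet nor sex entered this choice. The 78 genes comprise 28 that encode pore-forming subunits of voltage-gated channels, 9 silent voltage-gated subunits, 7 pores of the calcium- and sodium-activated families, 13 inward rectifiers, 10 tandem-pore leak channels and 11 auxiliary subunits. The lowest genes that were kept were Kcnmb1, with 10 or more counts in 6 libraries, Kcnk5 in 12 and Kcnq1 in 14. Just under the limit were Kcne3, with such counts in 2 libraries, Kcne2 in 1 and Kcna10 in 0. The other 11 genes under the limit were Kcna7, Kcne1, Kcnj1, Kcnj15, Kcnk7, Kcnk15, Kcnk16, Kcnk18, Kcnmb3, Kcnn4 and Kcnv2.

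The counts came from frozen brain cortex of 20 mice, 22 months old, that all carried the humanized APOE4 knock-in allele Apoe tm1.1(APOE*4)Adiuj on the B6(SJL) background. For 12 months, from the age of 10 months, they had been fed a control diet (CD, written SD in the labels) or an isocaloric ketogenic diet (KD). Among the females 5 were on the CD and 4 on the KD, and among the males 5 and 6. All were individually housed and were fasted before the tissue was taken. Each mouse gave 1 library, and mice are named here by their animal number. The tissue was used whole, so fewer cells of a type and less RNA per cell cannot be told apart.

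Potassium channels let potassium ions cross the membrane and so set the resting potential and end the action potential. Voltage-gated and inward rectifier pores are built from subunits that assemble around a central pore. Silent subunits, Kv beta subunits and calcium-binding KChIPs join voltage-gated pores and change their gating, number or place in the membrane. In brain, pyramidal neurons, interneurons, striatal neurons, astrocytes, microglia and choroid plexus each use their own set of these genes, so that several of them are known from a single cell type or region.

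The libraries held 12207161 to 29109990 counts and fell into 2 series by their library numbers, with totals of 21015275 to 29109990 in series 1 and 12207161 to 17697342 in series 2. The potassium channel genes took 0.459% to 0.637% of the counts of a library. Several libraries stood apart in marker genes of other regions. The summed level of 20 striatal marker genes, in CPM (counts scaled to the library total after upper-quartile normalisation), was 3266 to 4137 in KD females E61, E68 and E207 and 497 in KD female E227. In CD females it was 1498 in E249 and 418 to 570 in the other 4. KD male E59 had 5561 CPM, against 407 to 1090 in the CD males and 411 to 515 in the other 5 KD males. The same male had 3936 CPM of choroid plexus markers, against 208 to 571 in all other libraries. KD male E64 had 268 CPM of hippocampal markers, against 66.8 to 88.0 in the CD males. It had 1524 CPM of oligodendrocyte markers, against 2917 to 5468 in the CD males. The summed level of 15 markers of cortical excitatory neurons ran from 1055 to 1508 CPM in KD females, with E227 highest, and from 1011 to 1852 in CD females, with E249 lowest. All 20 striatal markers had a positive log2 fold change (KD over CD) in females, 16 of them at an unadjusted p under 0.05. Where E61, E68 and E207 are set against the CD females below, these are the KD females of high striatal level. The share of all genes that sets these mice apart in this way was not computed. CD female E228 had 14.0 CPM of the Y-linked gene Ddx3y, against at most 1.64 in the other females. Where leaving out E249, E227 or E59 changed the call of a named gene in females, its value without that mouse is given too. E249 and E227 were often the mice nearest the other diet group, so leaving them out widens a difference through the choice of mice. Values and adjusted p without them are therefore descriptions and no support for a difference. The part of these marker differences in the results was not tested except where a value is given.

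Compared per kilobase of exon, the axonal channels had the highest levels. Kcna1 and Kcna2, which encode the delayed rectifier subunits Kv1.1 and Kv1.2, averaged 82.8 and 47.5 normalised CPM per kb over the 20 libraries. Next came Kcnv1 at 44.3 and Kcnf1 at 42.5 CPM per kb, both silent subunits that form no channel alone. They were followed by Kcnd2 (40.8), the A-type channel Kv4.2 of dendrites, and Kcnk1 (40.4), the leak channel TWIK1. Auxiliary genes also came within the upper ranks, the Kv beta subunit Kcnab2 at 32.5 and the KChIPs Kcnip3 and Kcnip4 at 30.4 and 24.9 CPM per kb. Among the other voltage-gated pores Kcnc2, of the Kv3 type used by fast-spiking neurons, was at 29.8 and Kcnq5, an M-current subunit, at 24.4 CPM per kb. The lowest were Kcnmb1 (0.112), a BK beta subunit known from smooth muscle, Kcnk5 (0.169) and Kcnq1 (0.1704), known from heart. Inward rectifiers ran from 0.301 (Kcnj5) to 21.9 (Kcnj9) and tandem-pore channels from 0.169 (Kcnk5) to 40.4 (Kcnk1) CPM per kb.

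**Figure D1:**
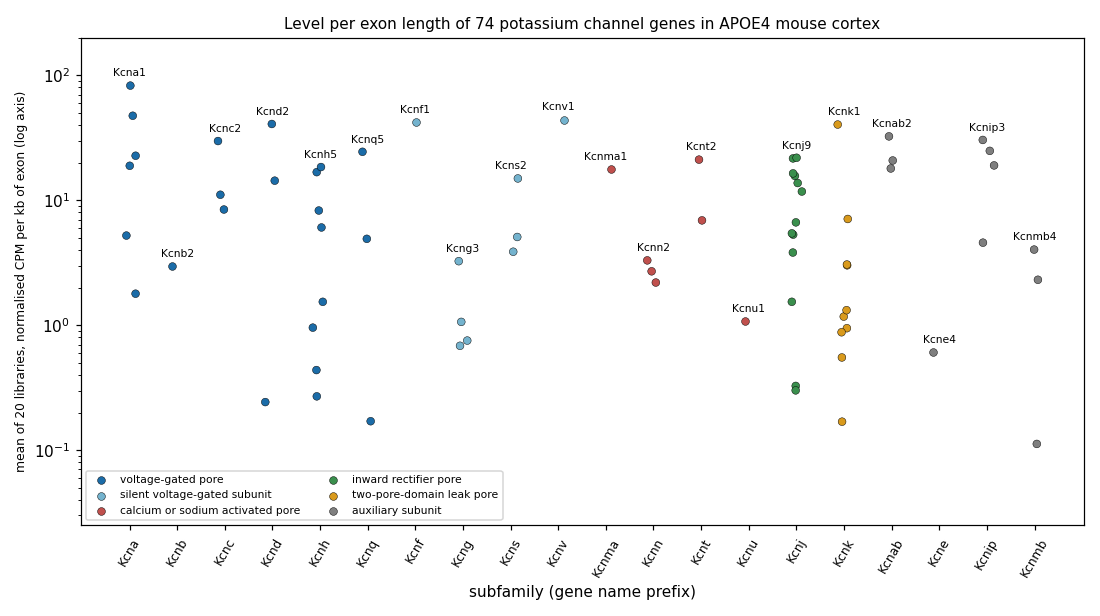
Mean level of 74 of the 78 potassium channel genes per kilobase of exon (log axis, normalised CPM per kb, averaged over 20 libraries), 1 point per gene, arranged by subfamily and coloured by class. Kcna1 lies highest at 82.8 and Kcnmb1 lowest at 0.112 CPM per kb.

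The genes also differed in how evenly they were expressed among mice of a group. The within-group SD of log2 CPM was smallest for Kcna3 (0.17), the Kv1.3 channel, and was 0.20 for Kcnf1 and 0.20 for Kcnk1. It was largest for Kcna5 (1.05), Kcnh8 (0.79), Kcng1 (0.75) and Kcng4 (0.74), all of which were low in level. Of the textbook glial and vascular members, Kcnj10, the Kir4.1 channel of astrocytes, was at 15.7 CPM per kb and Kcnj8, the Kir6.1 channel of pericytes, at 1.54. Kcnj11, the Kir6.2 pore of the ATP-sensitive channel, was at 6.66 CPM per kb.

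The first comparison was of KD with CD in females. No potassium channel gene passed the thresholds of FDR 0.1 and a 1.5-fold change by edgeR's quasi-likelihood test, where 0.0447% of the 15660 genes tested did. With p under 0.05 before adjustment, 7 genes were higher on the KD and 12 lower, or 8.97% and 15.4% of the 78, where 5.86% and 5.5% of all genes were higher and lower. The likelihood ratio test of edgeR called 6 members (1.4% of all genes) and DESeq2 called 7 (1.62%), all of them lower on the KD. The median log2 fold change of the 78 genes was -0.16, beside 0.013 for all genes tested, and 50 of the 78 lay below 0, where 47.3% of all genes did. Summed over the 78 genes, CD females had 5791 ± 631 CPM (SD, n = 5, 4735 to 6359) and KD females 5073 ± 407 CPM (SD, n = 4, 4576 to 5572), and the groups overlapped. The 12 lower genes were Kcnj3, Kcnj6, Kcnn2, Kcnh7, Kcnmb4, Kcnma1, Kcnb2, Kcnv1, Kcnt2, Kcns1, Kcns3 and Kcnab3. The 7 higher genes were Kcnn3, Kcnk2, Kcnj14, Kcnj5, Kcna5, Kcna4 and Kcnip2. By class, the log2 fold change was below 0 in 7 of 9 silent subunits (median -0.62), 19 of 28 voltage-gated pores (-0.18), 5 of 7 calcium- and sodium-activated pores (-0.36), 7 of 10 tandem-pore channels (-0.14), 7 of 11 auxiliary subunits (-0.030) and 5 of 13 inward rectifiers (0.12).

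**Figure D2:**
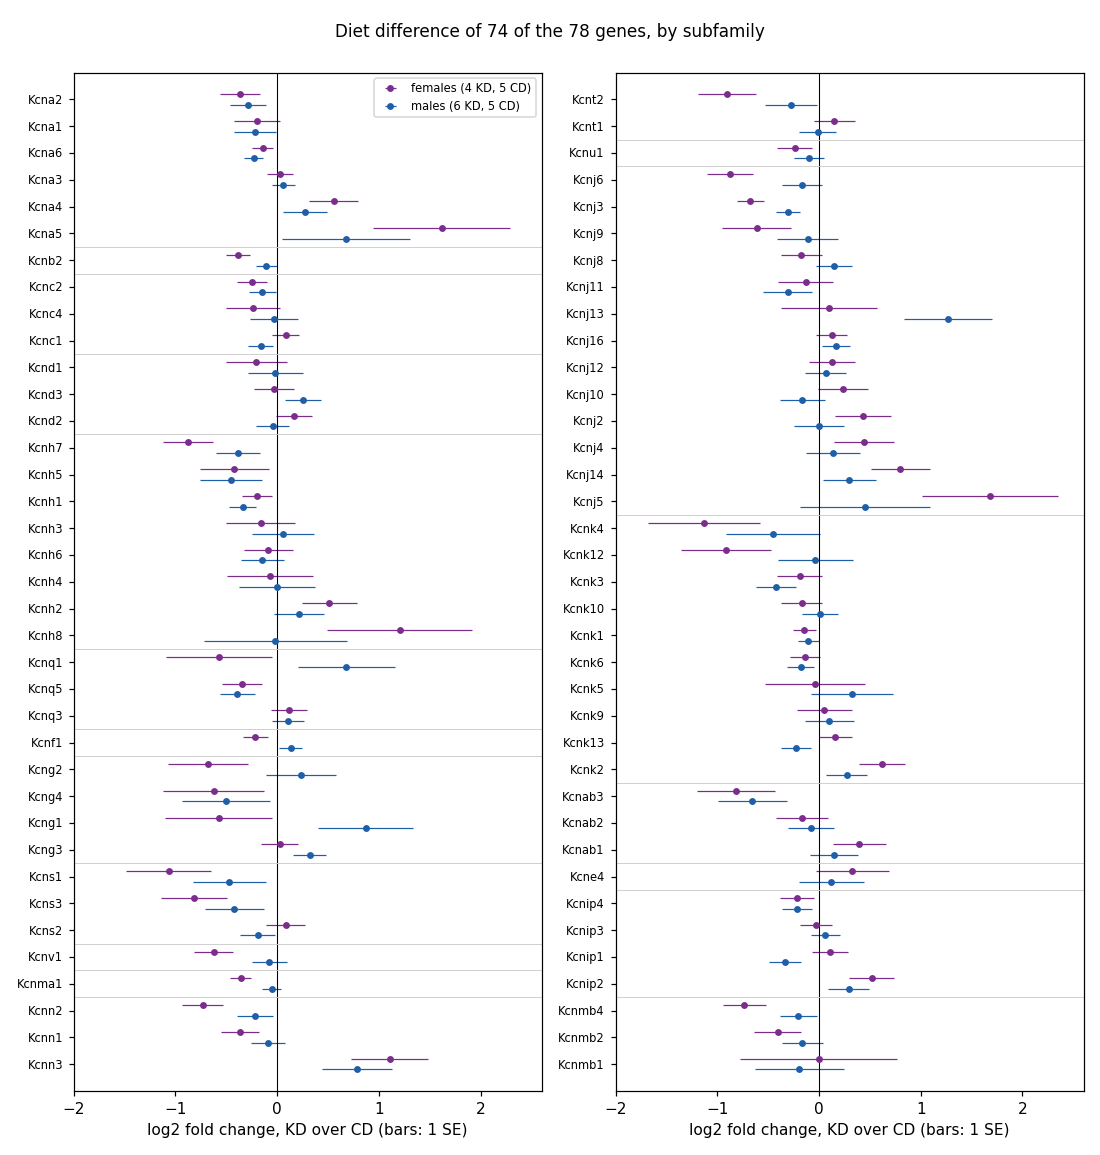
Log2 fold change (KD over CD) of 74 of the 78 potassium channel genes ordered by subfamily, in females and in males, as points with bars of 1 SE. In females 47 of the 74 genes shown lie below 0 and in males 44, and none passed FDR 0.1 with a 1.5-fold change in either sex.

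Among the inward rectifiers, the G-protein-gated GIRK channels gave the smallest p of all members. Kcnj3 (chromosome 2, 55435970 to 55598145, plus strand, GRCm38) encodes GIRK1, the subunit through which inhibitory receptors hyperpolarize neurons. Its level was 97.8, 105, 84.7, 119 and 91.8 CPM in CD females E62, E67, E249, E265 and E228 and 47.4, 60.3, 56.7 and 84.6 CPM in KD females E61, E68, E207 and E227. Every KD female lay below every CD female, although E227 and E249 lay close together, and Kcnj3 was the only member of the 78 with all KD females lower, where 0.69% of all genes were. The exact permutation test over the 126 splits of the 9 females gave p = 0.00794 (two-sided), the smallest it can give. Groups without overlap largely fix that p, so it adds nothing to the separation. The log2 fold change was -0.68 (SE 0.13, edgeR adjusted p = 0.123). It was -0.74 without E249 and -0.86 without E227 (edgeR adjusted p = 0.00841 and 0.00135), and -0.68 (edgeR adjusted p = 0.0858) without KD male E59. It was -0.92 within library series 1 and -0.47 within series 2. Adding the striatal score as a covariate gave -0.45 at an unadjusted p of 0.00279. Over the 78 members, 12 were lower at an unadjusted p under 0.05 without this covariate and 5 with it. Values with the covariate are not given here for the lower genes other than Kcnj3.

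Kcnj6 (GIRK2, chromosome 16, 94748636 to 94997701, minus strand) was at 49.2, 52.9, 27.3, 47.1 and 64.1 CPM in the CD females and at 17.8, 19.1, 26.5 and 44.1 CPM in the KD females, in the same order of mice. The groups overlapped only through E227 at 44.1 CPM and E249 at 27.3 CPM, and the log2 fold change was -0.87 (SE 0.22, edgeR adjusted p = 0.190) with all libraries, and -1.05 without E249 and -1.15 without E227 (edgeR adjusted p = 0.00688 and 0.00549). Kcnj9 (GIRK3) had 129, 100.5, 31.7, 84.2 and 105 CPM in CD females and 46.5, 33.2, 40.3 and 114 CPM in KD females. Here E249 was lowest of all females and E227 was higher than 4 of the 5 CD females. Its log2 fold change was -0.61 (SE 0.34, edgeR adjusted p = 0.536) with all females, -0.84 without E249 and -1.22 without E227 (edgeR adjusted p = 0.0955 and 0.0192), and -1.41 (edgeR adjusted p = 3.84e-05) without both. Kcnj5 (GIRK4), known mainly from heart, was low in level and differed in the other direction. It had 0.466, 0.690, 4.28, 0 and 0.627 CPM in CD females, where 0 counts in E265 allow up to 0.255 CPM (3 counts), and 3.59, 5.08, 4.14 and 1.29 CPM in KD females. E249 exceeded E61, E207 and E227, and the log2 fold change was 1.68 (SE 0.66, edgeR adjusted p = 0.331) with all libraries, and 2.87 without E249 and 2.05 without E227 (edgeR adjusted p = 0.00735 and 0.0968).

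Promoter sequences are shown for Kcnj3 and Kcnj6, the 2 members of smallest p in females, and for Kcnn3, the SK3 channel gene that was higher on the KD. RefSeq (GRCm38.p6) held promoters for 55 of the 78 genes, in 78 windows from 250 bases before to 50 after a start. Capitals mark a GC box (GGGCGG) in Kcnj3 and the core TGACG of the cAMP response element, the site bound by CREB, in Kcnj6. The window of Kcnn3 had neither on either strand. RefSeq holds 2 windows for Kcnj6, and the one not printed had a GC box on the opposite strand and no TGACG. The strands are plus for Kcnj3 and Kcnn3 and minus for Kcnj6, and each is written 5′ to 3′ on its gene's strand.
Kcnj3 chr2:55435720-55436019: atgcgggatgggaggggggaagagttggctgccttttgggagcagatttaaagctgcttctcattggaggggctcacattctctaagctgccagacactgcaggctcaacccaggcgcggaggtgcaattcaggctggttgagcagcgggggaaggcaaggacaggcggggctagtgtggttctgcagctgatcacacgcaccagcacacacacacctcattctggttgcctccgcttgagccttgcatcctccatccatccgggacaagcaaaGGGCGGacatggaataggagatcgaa
Kcnj6 chr16:94997647-94997946: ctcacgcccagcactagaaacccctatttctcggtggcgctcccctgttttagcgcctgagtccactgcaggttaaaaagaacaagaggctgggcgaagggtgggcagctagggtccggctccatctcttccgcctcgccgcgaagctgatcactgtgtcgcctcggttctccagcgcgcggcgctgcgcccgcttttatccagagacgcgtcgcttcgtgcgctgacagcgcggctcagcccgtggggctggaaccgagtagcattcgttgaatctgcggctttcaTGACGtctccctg
Kcnn3 chr3:89519914-89520213: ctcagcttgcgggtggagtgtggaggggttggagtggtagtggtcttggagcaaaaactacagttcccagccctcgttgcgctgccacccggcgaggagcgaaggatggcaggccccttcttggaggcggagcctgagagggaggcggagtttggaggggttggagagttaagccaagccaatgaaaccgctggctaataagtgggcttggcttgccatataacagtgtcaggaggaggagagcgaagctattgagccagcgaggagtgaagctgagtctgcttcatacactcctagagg
Searched on both strands, the full element TGACGTCA was in 0 of the 78 windows and in 1.79% of all 32851 promoter windows, and the core TGACG, which the full element contains, in 15 windows (19.2%, beside 20.8% of all). The GC box was in 39 windows (50%, beside 35.7%), TATAAA in 4 (5.13%, beside 13.6%) and the E-box CACGTG in 6 (7.69%, beside 7.15%). A match is a description of these letters only.

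Of the other inward rectifiers Kcnj14 was higher in every KD female and the rest had overlapping groups. Kcnj14 (Kir2.4) had 0.466, 0.771, 0.755, 0.765 and 0.684 CPM in CD females and 1.36, 1.24, 1.16 and 0.993 CPM in KD females. All KD females lay above all CD females, as for 1.12% of all genes, and the log2 fold change was 0.80 (SE 0.29, edgeR adjusted p = 0.284). Kcnj2 (Kir2.1), a strong rectifier that holds the resting potential, ranged over 57.6 to 93.9 CPM in CD and 56.8 to 124 CPM in KD females, with E227 lowest and a log2 fold change of 0.43 (SE 0.28). For its relatives Kcnj4 and Kcnj12 the log2 fold change was 0.44 (SE 0.30) and 0.13 (SE 0.23). Kcnj10 had 94.9 ± 25.7 CPM in CD (SD, n = 5) and 110.3 ± 41.6 CPM in KD females (SD, n = 4), and Kcnj16, its partner Kir5.1 in astrocytes, 47.5 ± 7.95 and 51.4 ± 5.37 CPM. Neither difference exceeded the spread between mice. The ATP-sensitive pores Kcnj8 and Kcnj11 had log2 fold changes of -0.17 (SE 0.20) and -0.13 (SE 0.27), and Kcnj13, the Kir7.1 channel of choroid plexus, 0.096 (SE 0.47).

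Genes of calcium- and sodium-activated channels differed in both directions. Kcnn2 (SK2), which carries the afterhyperpolarization of pyramidal neurons, had 29.0, 21.8, 25.5, 41.8 and 24.98 CPM in CD females and 12.5, 15.6, 14.3 and 25.3 CPM in KD females. E61, E68 and E207 were below all CD females, while E227 lay within their range, and the log2 fold change was -0.73 (SE 0.20, edgeR adjusted p = 0.202) with all libraries, and -0.80 without E249 and -0.92 without E227 (edgeR adjusted p = 0.0317 and 0.0211). Kcnn3 (SK3), by contrast, had 10.53, 14.0, 43.8, 12.2 and 12.6 CPM in CD and 35.7, 41.8, 54.7 and 18.2 CPM in KD females. All KD females exceeded the CD females other than E249, whose value lay between those of E68 and E207. Its log2 fold change was 1.11 (SE 0.38, edgeR adjusted p = 0.255) with all libraries, and 1.61 without E249 and 1.40 without E227 (edgeR adjusted p = 0.0108 and 0.0360). With the striatal score as a covariate it was 0.36 at an unadjusted p of 0.335. Kcnn1 (SK1) was at 12.7 ± 3.93 CPM in CD (SD, n = 5) and 9.93 ± 1.82 CPM in KD females (SD, n = 4).

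The pore of the BK channel, Kcnma1, had 283, 283, 302, 379.7 and 395 CPM in CD females and 188, 228.5, 298 and 288 CPM in KD females. Within each library series every KD female was below every CD female, by little for E207 against E249. Its log2 fold change was -0.36 (SE 0.10, edgeR adjusted p = 0.213), with -0.45 in series 1 and -0.29 in series 2. The neuronal BK beta subunit Kcnmb4 had 13.7, 15.9, 9.64, 18.7 and 15.1 CPM in CD and 6.37, 8.07, 7.56 and 13.2 CPM in KD females. Again E61, E68 and E207 were below all CD females and E227 above E249, with a log2 fold change of -0.73 (SE 0.21, edgeR adjusted p = 0.206) with all libraries, and -0.85 without E249 and -1.03 without E227 (edgeR adjusted p = 0.0225 and 0.00585). Kcnmb2, which inactivates BK channels, was lower too without passing an unadjusted p of 0.05 (log2 fold change -0.41, SE 0.23, and -0.49 without E249 and -0.78 without E227 (edgeR adjusted p = 0.269 and 0.0369)), and that of Kcnmb1 was -0.0036 (SE 0.77).

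Of the sodium-activated channels, Kcnt2 (Slick) had 153, 159, 109, 227.4 and 189.9 CPM in CD females and 45.0, 68.6, 69.5 and 182 CPM in KD females. The 3 KD females other than E227 were below all CD females, and E227 exceeded 3 CD females. The log2 fold change was -0.91 (SE 0.29, edgeR adjusted p = 0.230) with all libraries, and -1.06 without E249 and -1.40 without E227 (edgeR adjusted p = 0.0316 and 0.00385). Kcnt1 (Slack) had 59.2 ± 15.5 CPM in CD (SD, n = 5) and 65.99 ± 11.2 CPM in KD females (SD, n = 4), and the groups overlapped. Kcnu1 (Slo3), the pore of sperm, had a log2 fold change of -0.24 (SE 0.17).

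**Figure D3:**
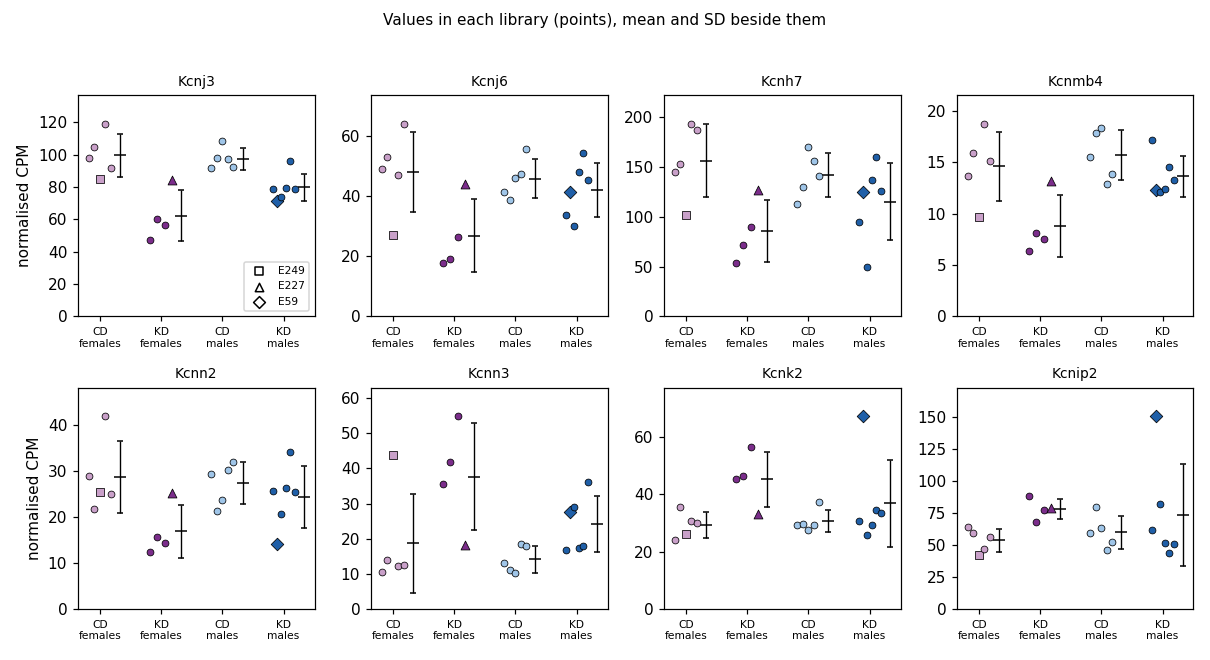
Normalised CPM of 8 potassium channel genes, 1 panel per gene, with points for the 20 libraries in 4 groups and the group mean with its SD beside them. Kcnj3, Kcnj6, Kcnh7, Kcnmb4 and Kcnn2 are lower and Kcnn3, Kcnk2 and Kcnip2 higher in KD than in CD females on average, and CD female E249 (square) and KD female E227 (triangle) lie toward the other female group in most panels, with KD male E59 drawn as a diamond.

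Voltage-gated pores held the largest share of the potassium channel transcripts, with 3206 ± 390 CPM in CD (SD, n = 5) and 2771 ± 322 CPM in KD females (SD, n = 4) when the 28 were summed. Kcnh7 (Erg3), which slows repetitive firing, had 145, 152, 102, 193 and 187 CPM in CD females and 54.0, 71.4, 89.4 and 127 CPM in KD females. E61, E68 and E207 were below all CD females and E227 was above E249, and the log2 fold change was -0.88 (SE 0.24, edgeR adjusted p = 0.202) with all libraries, and -1.02 without E249 and -1.06 without E227 (edgeR adjusted p = 0.0173 and 0.0287). Exons of Kcnh7 overlap Gca on the opposite strand, and since the counted strand is not stated their reads could not be told apart. The same holds for Kcnn2 with A330093E20Rik and Kcnt2 with 4930590L20Rik, and for Kcnh3, Kcnip4, Kcnj13, Kcnk3 and Kcnq1 with other genes. Kcnb2 (Kv2.2) had 42.3, 47.2, 57.7, 62.002 and 55.3 CPM in CD and 31.2, 37.0, 41.9 and 45.7 CPM in KD females, with E227 within the CD range and a log2 fold change of -0.39 (SE 0.12, edgeR adjusted p = 0.226).

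Kv1 genes differed in direction among themselves. Kcna5 (Kv1.5) had 1.77, 4.30, 11.1, 1.19 and 1.996 CPM in CD females and 15.7, 17.0, 19.9 and 1.40 CPM in KD females. E61, E68 and E207 were above all CD females and E227 was below 4 of them. Its log2 fold change was 1.62 (SE 0.67, edgeR adjusted p = 0.361) with all libraries, 2.56 without E249 and 2.03 without E227 (edgeR adjusted p = 0.0217 and 0.0683), and -0.093 with the striatal score as a covariate. Kcna4, an A-type channel of axons, had 54.3, 78.5, 135, 81.9 and 72.7 CPM in CD and 115, 119, 169.8 and 76.7 CPM in KD females, with a log2 fold change of 0.55 (SE 0.24, edgeR adjusted p = 0.378) and overlapping groups. It was 0.75 without E249 and 0.76 without E227 (edgeR adjusted p = 0.0588 and 0.0683), and -0.053 with the striatal score as a covariate. The groups also overlapped in the most abundant pores. Kcna1 had 442 ± 59.8 CPM in CD (SD, n = 5) and 384 ± 103 CPM in KD females (SD, n = 4), and Kcna2 had 645 ± 137 and 494 ± 94.6 CPM, at log2 fold changes of -0.19 (SE 0.23, edgeR adjusted p = 0.842) and -0.36 (SE 0.20, edgeR adjusted p = 0.524). Kcna6 and Kcna3 had log2 fold changes of -0.14 (SE 0.11) and 0.032 (SE 0.13).

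None of the Kv3, Kv4 and Kv7 genes named here reached an unadjusted p under 0.05 in females. The log2 fold changes of these Kv3 genes were 0.083 for Kcnc1, -0.25 for Kcnc2 and -0.24 for Kcnc4. Those of the A-type Kv4 genes were -0.20, 0.16 and -0.031 for Kcnd1, Kcnd2 and Kcnd3. Kcnq3, a subunit of the M-current channel, was at 0.12 (SE 0.18), Kcnq5 at -0.35 (SE 0.19) and Kcnq1, which overlaps Kcnq1ot1, at -0.57. Of the EAG, ERG and ELK genes besides Kcnh7, Kcnh1 had -0.20, Kcnh5 -0.42, Kcnh3 -0.16, Kcnh4 -0.07, Kcnh6 -0.087 and Kcnh2 0.51. Kcnh8, at 0.419, 0.487, 4.86, 0.425 and 0.684 CPM in CD females and 2.34, 3.67, 4.14 and 0.467 CPM in KD females, had 1.20 (SE 0.71) with all libraries, and 2.38 without E249 and 1.67 without E227 (edgeR adjusted p = 0.0264 and 0.183). Its highest female was the CD mouse E249.

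Silent subunits, which join Kv2 pores, had the lowest median of the classes. Kcnv1 (Kv8.1) had 202, 284, 151, 286 and 245 CPM in CD females and 113, 147, 142 and 203 CPM in KD females. E61, E68 and E207 were below all CD females, and the log2 fold change was -0.62 (SE 0.20, edgeR adjusted p = 0.230) with all libraries, and -0.76 without E249 and -0.78 without E227 (edgeR adjusted p = 0.0203 and 0.0437). Kcns1 (Kv9.1), known from sensory and projection neurons, had 24.4, 14.2, 3.69, 15.1 and 16.0 CPM in CD and 5.35, 3.37, 4.80 and 14.1 CPM in KD females, and Kcns3 (Kv9.3), known from parvalbumin interneurons, 17.3, 9.69, 4.53, 15.8 and 15.6 and 4.54, 5.46, 4.80 and 14.1 CPM. In both genes E249 lay with the KD females and E227 with the CD females. Their log2 fold changes were -1.07 (SE 0.42, edgeR adjusted p = 0.327) and -0.82 (SE 0.33, edgeR adjusted p = 0.344) with all libraries. For Kcns1 the value was -1.33 without E249 and -1.78 without E227 (edgeR adjusted p = 0.0359 and 0.0119), and for Kcns3 -1.04 without E249 and -1.38 without E227 (edgeR adjusted p = 0.0319 and 0.0117). Kcns2 was at 0.083 (SE 0.19) and Kcnf1 at -0.21 (SE 0.12). The Kv6 genes Kcng1 to Kcng4, low in level, ranged from -0.68 (Kcng2) to 0.023 (Kcng3), with SEs of 0.18 to 0.53.

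In the tandem-pore family Kcnk2 (TREK1), a leak channel opened by stretch and lipids, had 24.1, 35.7, 26.1, 30.6 and 29.8 CPM in CD females and 45.4, 46.2, 56.3 and 32.9 CPM in KD females. E61, E68 and E207 were above all CD females and E227 within their range, and the log2 fold change was 0.62 (SE 0.22, edgeR adjusted p = 0.281) with all libraries, and 0.59 without E249 and 0.74 without E227 (edgeR adjusted p = 0.173 and 0.0836). It was 0.12 with the striatal score as a covariate. Kcnk4 (TRAAK) had 7.46, 4.75, 0.922, 2.81 and 6.22 CPM in CD and 0.842, 0.811, 0.945 and 5.49 CPM in KD females, with a log2 fold change of -1.13 (SE 0.55, edgeR adjusted p = 0.455) with all libraries, -1.41 without E249 and -2.49 without E227 (edgeR adjusted p = 0.115 and 0.00399), and -2.70 (edgeR adjusted p = 2.53e-05) without both. Kcnk12, at 1.68 CPM or less in every female, had -0.91 (SE 0.44) with all libraries, and -1.14 without E249 and -1.44 without E227 (edgeR adjusted p = 0.0963 and 0.0828). Kcnk1 had 92.8 ± 10.7 CPM in CD (SD, n = 5) and 85.4 ± 8.22 CPM in KD females (SD, n = 4). The acid-sensitive Kcnk3 and Kcnk9 were at -0.19 and 0.051, Kcnk10 at -0.17, Kcnk6 at -0.14 and Kcnk5 at -0.039, with SEs of 0.15 to 0.50. Kcnk13 (THIK1), the main tandem-pore channel of microglia, had 9.32, 9.65, 8.13, 7.74 and 9.87 CPM in CD and 13.4, 13.7, 8.22 and 7.01 CPM in KD females, with 0.16 (SE 0.16). Of 14 microglial markers, all 14 had a positive log2 fold change in females and 6 did so at an unadjusted p under 0.05, with sums of 411 to 547 CPM in CD and 482 to 675 CPM in KD females.

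Among the auxiliary subunits, Kcnip2 (KChIP2), a partner of Kv4 channels, had 64.4, 59.5, 42.2, 46.8 and 56.0 CPM in CD females and 88.1, 68.2, 77.2 and 79.1 CPM in KD females. Every KD female lay above every CD female, as for 1.12% of all genes. The log2 fold change was 0.52 (SE 0.22, edgeR adjusted p = 0.365), 0.33 in series 1 and 0.70 in series 2. The exact permutation test gave p = 0.0159 (two-sided), which again mainly restates the separation. The other KChIPs Kcnip1, Kcnip3 and Kcnip4 were at 0.11, -0.03 and -0.22. Kcnab3, a Kv beta subunit, had 90.8, 43.7, 31.4, 83.9 and 51.3 CPM in CD and 23.1, 37.6, 30.8 and 45.3 CPM in KD females, and its groups overlapped at a log2 fold change of -0.82 (SE 0.38, edgeR adjusted p = 0.425). Kcnab1 had 153, 116, 146, 191 and 141 CPM in CD and 225, 245, 236 and 115 CPM in KD females. E61, E68 and E207 were above all CD females and E227 below all of them, so that its log2 fold change was 0.40 (SE 0.26). Kcnab2 was at -0.17 (SE 0.25) and Kcne4 at 0.33 (SE 0.36).

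The order of the libraries recurred across these genes. Of the 19 members at an unadjusted p under 0.05 in females, E227 was the KD female nearest the CD mean in 17, and E249 was the CD female nearest the KD mean in 13. Over all 78 members the counts were 36 and 26. The same counts over all genes tested were not computed, so this order is not shown to be particular to potassium channel genes. Both mice are in series 2, and they were picked out here by their marker levels. E227 had the lowest striatal sum of the KD females (497 CPM) and E249 the highest of the CD females (1498 CPM). Leaving out E227 alone already ends the overlap of the striatal sums. Leaving out both takes away the mice that most oppose the diet difference, so calls without them cannot serve as support for it. By edgeR's quasi-likelihood test 17 members were called without E249, 5 higher (3.98% of all genes) and 12 lower (2.68%), and 18 without E227, 5 higher (2.45%) and 13 lower (3.23%). Without both mice 26 members were called, 7 higher (6.6% of all genes) and 19 lower (5.65%). Library series 1, which holds neither and compares 2 with 2 females, gave 15, with 4 higher (2.45% of all genes) and 11 lower (2.97%). Series 2 alone, which holds both mice, gave 0, where 0% of all genes were called. The sign in series 1 and series 2 was the same for 47 of the 78 members (60.3%) in females, beside 44.3% of all genes, and for 46 (59%) in males, beside 52.3%. Leaving out KD male E59 gave 1, Kcnj3, and leaving out any other single mouse gave 0, with no share of all genes given for these fits. With RUVg in place of the series term, Kcnj3 was called with 1 factor (0.217% of all genes), and Kcnj3, Kcnj6, Kcnmb4 and Kcnn2 with 2 (1.55%). Kcnj3 was among the calls without E249, without E227, without both (-0.91, edgeR adjusted p = 6.5e-05) and in series 1. With the striatal score as a covariate, 0 members were higher and 5 lower at an unadjusted p under 0.05, beside 2.41% and 2.4% of all genes, and 0 were called. Without the covariate 7 were higher and 12 lower, beside 5.86% and 5.5% of all genes.

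**Figure D4:**
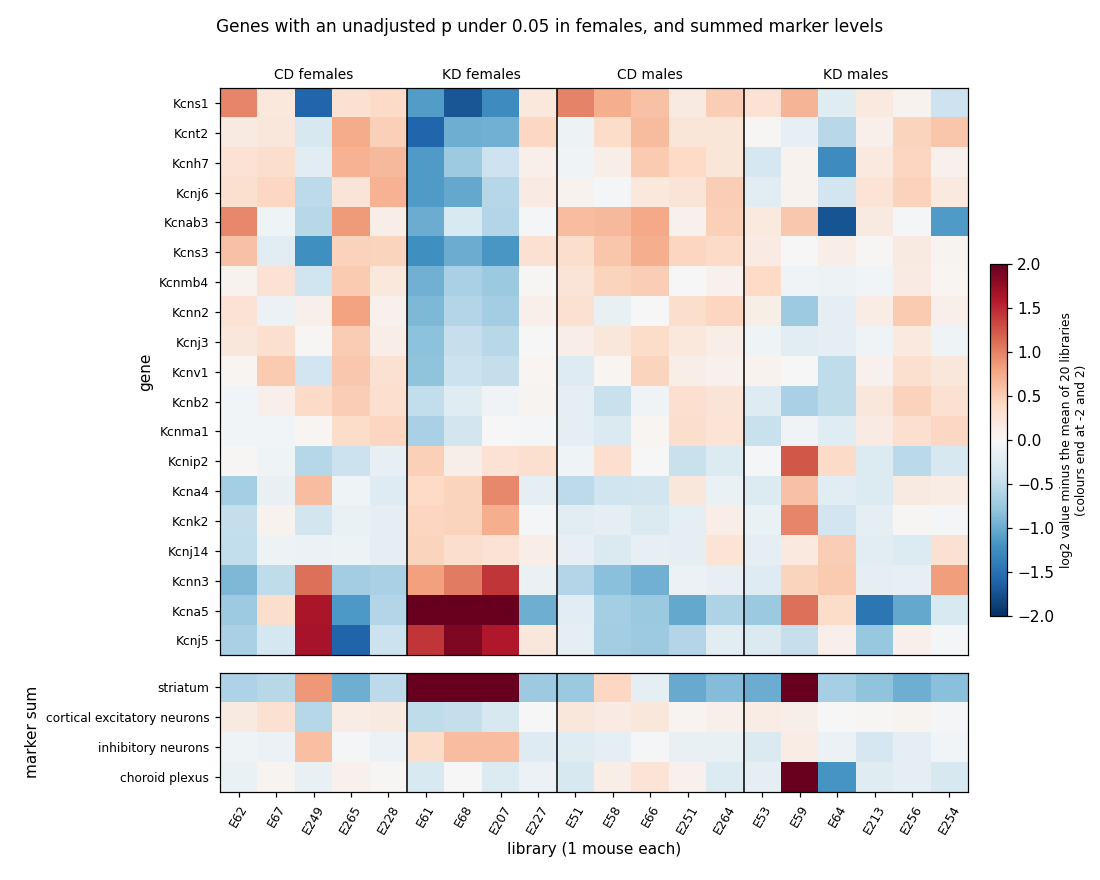
Deviation (log2, colours end at ±2) of 19 potassium channel genes and 4 marker sums from their mean over all libraries, with 1 column for each of the 20 libraries by group. KD females E61, E68 and E207 share a pattern that CD female E249 shows in part and KD female E227 does not.

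In males the same comparison gave 0 called members, where 0% of all genes were called, and the likelihood ratio test and DESeq2 gave 0 as well. With p under 0.05 before adjustment, 2 genes were higher on the KD and 6 lower, beside 2.37% and 1.19% of all genes. The median log2 fold change was -0.064, with -0.0030 for all genes, and 47 of the 78 members lay below 0, where 50.9% of all genes did. Summed, the 78 genes had 5763 ± 298 CPM in CD (SD, n = 5) and 5347 ± 666 CPM in KD males (SD, n = 6).

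Kcnj3 was again among the lower genes. It had 92.0, 97.9, 108, 97.0 and 92.1 CPM in CD males E51, E58, E66, E251 and E264 and 71.3 to 96.0 CPM (median 78.9) in the 6 KD males. E256 was the highest KD male and the others were below all CD males, with a log2 fold change of -0.31 (SE 0.12, edgeR adjusted p = 0.9998). Kcns3 had 14.6, 16.8, 18.9, 15.4 and 14.9 CPM in CD and 11.4 to 12.9 CPM (median 12.1) in KD males. It was the member in which all KD males lay below all CD males, as did 0.14% of all genes, although its log2 fold change of -0.42 (SE 0.29) had an unadjusted p of 0.159. The exact permutation test over 462 splits gave p = 0.00216 (two-sided), the smallest it can give. The separation for which the gene is named largely fixes that p, which is unadjusted and leaves out library series, so it adds no support.

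The lower voltage-gated genes in males were Kcnh1 (Eag1), Kcna6 (Kv1.6) and Kcnq5. Kcnh1 had 153, 164, 150.2, 103 and 123 CPM in CD and 80.7 to 143 CPM (median 108) in KD males and a log2 fold change of -0.34 (SE 0.13). Kcna6 had 149, 174, 178, 128 and 115 CPM in CD and 112 to 134 CPM (median 124) in KD males, with -0.23 (SE 0.095). Kcnq5 had 199.7, 223, 260.5, 183 and 192 CPM in CD and 91.4 to 220.4 CPM (median 167) in KD males, with -0.39 (SE 0.17). In all 3 genes the groups overlapped, and the edgeR adjusted p was 0.9998 in each. E64 was the lowest KD male in Kcnh1 and Kcnq5. All 12 oligodendrocyte markers had a log2 fold change below 0 in males, where 50.9% of all genes did. Of these, 3 had an unadjusted p under 0.05, beside 1.19% of all genes. The part of E64's marker levels in the male values was not tested. The tandem-pore gene Kcnk3 (TASK1) and the KChIP Kcnip1 had log2 fold changes of -0.43 (SE 0.20) and -0.33 (SE 0.16), also with overlap. Reads of Kcnk3 overlap the opposite-strand gene Gm9899.

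The 2 genes higher in KD males were Kcnn3 and Kcnj13. Kcnn3 had 13.2, 10.98, 10.1, 18.5 and 17.8 CPM in CD males and 16.7 to 36.1 CPM (median 22.7) in KD males. E59, E64 and E254 were above all CD males and the other 3 within their range, with a log2 fold change of 0.78 (SE 0.34, edgeR adjusted p = 0.9998). Kcnj13 had 3.16, 2.26, 1.78, 8.37 and 7.64 CPM in CD and 3.501 to 24.5 CPM (median 8.22) in KD males, with series 2 higher than series 1 in the CD males. The highest value was that of E59, the mouse with 3936 CPM of choroid plexus markers. Its log2 fold change was 1.27 (SE 0.43, edgeR adjusted p = 0.9998), and 0.56 without E59. Exons of Kcnj13 overlap Gigyf2 on the other strand. Kcne2, a partner subunit of choroid plexus channels that was under the expression limit, had 235 counts in 1 library and under 10 in all others.

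Averaged over both sexes, 0 members were called (0.268% of all genes), and at an unadjusted p under 0.05 there were 8 higher and 18 lower members, beside 7.41% and 6.44% of all genes. The likelihood ratio test called 4 (2.36% of all genes) and DESeq2 6 (2.24%). Kcnj3 was the 1 member at FDR 0.1 without a limit on the fold (0.37% of all genes), with a log2 fold change of -0.49 (SE 0.089, edgeR adjusted p = 0.0583). Without E249 11 members were called, 4 higher (3.42% of all genes) and 7 lower (1.62%). The higher ones were Kcna5, Kcnh8, Kcnj5 and Kcnn3 and the lower ones Kcnab3, Kcnh7, Kcnj6, Kcnk4, Kcns1, Kcns3 and Kcnt2. Without E227 there were also 11, Kcna5 and Kcnn3 higher (2.21%) and the same 7 with Kcnj9 and Kcnmb4 lower (1.98%). The signs in females and males were the same in 59 of the 78 members (75.6%), where they were the same in 67.2% of all genes. Over the members the log2 fold changes of the sexes had a Pearson r of 0.53 and a Spearman rho of 0.58, and over all genes 0.55 and 0.47. These are correlations across genes, which are not independent replicates.

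The interaction, the log2 fold change in females minus that in males, gave 0 called members (0% of all genes). The likelihood ratio test and DESeq2 also gave 0. At an unadjusted p under 0.05 there were 0 members above 0 and 4 below, beside 1.09% and 1.05% of all genes. The 4 were Kcnj6 (-0.70 (SE 0.30, edgeR adjusted p = 0.9999)), Kcnma1 (-0.31, SE 0.14), Kcnv1 (-0.55, SE 0.26) and Kcnf1 (-0.35, SE 0.17). In males Kcnj6 had 41.4, 38.7, 46.0, 47.3 and 55.6 CPM on the CD and 30.1 to 54.3 CPM (median 43.3) on the KD, and its log2 fold change was -0.17 (SE 0.20). Kcnma1 had 258, 240.5, 302, 375 and 357 CPM and 215 to 394 CPM (median 306), with -0.051 (SE 0.092), and Kcnv1 -0.076 (SE 0.18). All of these male groups overlapped. For Kcnj3 the interaction was -0.37 (SE 0.18) at an unadjusted p of 0.0525. Without E249 and E227 together, 15 members were called for the interaction, 5 above 0 (1.45% of all genes) and 10 below (2.11%). Both are females, while KD male E59, with 5561 CPM of striatal markers, stayed in that fit. Leaving out such mice in females only can itself make the diet difference unlike between the sexes, so these calls are no evidence of it.

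**Figure D5:**
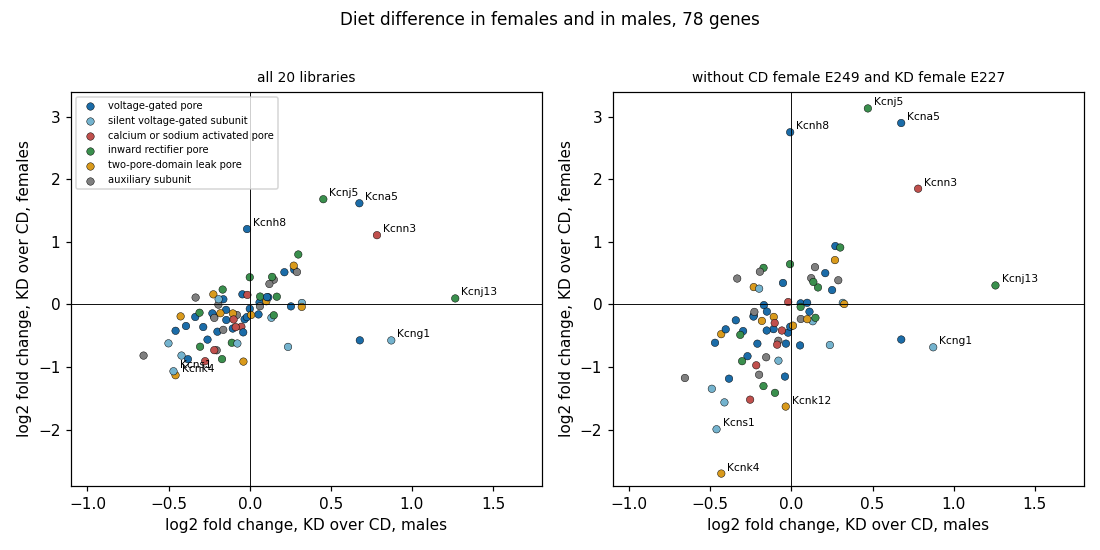
Log2 fold change (KD over CD) in females (vertical) against males (horizontal) for the 78 potassium channel genes, with all 20 libraries (left) and without CD female E249 and KD female E227 (right). With all libraries 59 of the 78 genes have the same sign in both sexes, and without these 2 mice the female values spread further from 0.

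Females were also compared with males over both diets. No member was called by edgeR's quasi-likelihood test (0.134% of all genes), while the likelihood ratio test called Kcna5, Kcnj5 and Kcnh8 and DESeq2 called Kcna5 and Kcnj5 (1.83% and 1.35% of all genes). At an unadjusted p under 0.05, 5 members were higher and 10 lower in females, beside 8.59% and 4.96% of all genes. Higher in females were Kcna5 (1.70, SE 0.47), Kcnj5 (1.48, SE 0.46), Kcnh8 (1.46, SE 0.49), Kcnj10 and Kcnip1. Kcna5 was at 1.19 to 19.9 CPM (median 4.30) in the 9 females and 0.870 to 7.58 CPM (median 1.85) in the 11 males. Its highest female values were in E61, E68, E207 and E249 and its highest male value in E59, the libraries with the highest striatal sums. Kcnj10 was at 68.5 to 162 CPM (median 86.5) in females and 39.9 to 92.3 CPM (median 71.6) in males, with a log2 difference of 0.52 (SE 0.16). For Kcnip1 it was 0.41 (SE 0.12). Lower in females were Kcnmb4, Kcnmb2, Kcnc4, Kcns1, Kcns3, Kcnj6, Kcnj9, Kcnt2, Kcnf1 and Kcnip3, from -0.63 (Kcns1) to -0.18 (Kcnf1). Without E227 10 members were called, of which Kcna5, Kcnh8, Kcnj5 and Kcnj10 were higher (2.9% of all genes) and Kcnj9, Kcnk4, Kcnmb2, Kcns1, Kcns3 and Kcnt2 lower (2.2%). Without E59 Kcna5 was called (1.87, edgeR adjusted p = 0.0795), with no share of all genes given for that fit. No member separated all females from all males, where 0.0192% of all genes did with females higher and 0.0255% with females lower. With the striatal score as a covariate 1 member was higher and 1 lower at an unadjusted p under 0.05, beside 2.04% and 1.62% of all genes.

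Genes that work with potassium channels but carry other symbols were counted from a list of 38, of which 35 were tested. In females 18 had a log2 fold change above 0 and 17 below, with a median of 0.013, and 0 were called. At an unadjusted p under 0.05 there were 3 higher and 2 lower, beside 5.86% and 5.5% of all genes. Amigo1, an auxiliary subunit of Kv2 channels, was at -0.23 (SE 0.08). Lgi2, of the family that binds ADAM proteins at synapses and axons, was at 41.3 to 47.8 CPM in CD and 48.3 to 79.6 CPM in KD females without overlap, as for 1.12% of all genes (0.61, SE 0.14). Cntnap2, which clusters Kv1 channels beside the node, and Hcn4 were at 0.41 (SE 0.15) and 1.31 (SE 0.55). In males 1 was higher and 2 were lower at an unadjusted p under 0.05, beside 2.37% and 1.19% of all genes, namely Dpp6, a partner of Kv4 (0.22, SE 0.10), Amigo1 (-0.17, SE 0.07) and the BK gamma subunit Lrrc38 (-1.11, SE 0.27). Lrrc38 had 1.95 to 3.04 CPM in CD and 0.559 to 1.95 CPM in KD males, without overlap although the nearest values were equal after rounding, as for 0.14% of all genes.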

How the data were processed

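RNA-seq libraries of 20 mice were analysed, 1 per mouse. The authors aligned 50-bp read pairs to mm10 with STAR and deposited raw counts of reads per gene; the annotation version and counted strand are not given in the sources used here. Totals were 12207161 to 29109990 counts per library, which limits the precision of low genes, and intervals and floors cover counting error only. Labels do not say more on replicates than 1 animal each, and groups come from the labels.

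From the deposited counts, CPM with upper-quartile normalisation were computed, and CPM per kb used exon lengths of GENCODE (GRCm38). Differential expression was tested with edgeR 4.0.16 in R 4.3.3 on the 15660 genes passing filterByExpr, all 78 members included. The quasi-likelihood F test (robust) had the 4 groups and the library series as terms, Benjamini-Hochberg adjustment over all genes, and calls at FDR 0.1 and a 1.5-fold change. Adjusted p values in the text are from this test unless another is named. The study's RUVg step was run only as an alternative, since its number of factors and control genes are not stated; here all but the 5000 genes of smallest p were controls. Exact permutation tests used log2(CPM + 0.5), without a series term or an adjustment for the number of genes. Alternatives were TMM, DESeq2 1.42.0 (size factors and Wald test), the likelihood ratio test, other filters and thresholds, and no series term. Others were each sex or series alone, a striatal score covariate, and leaving out mice. For the score, log2 CPM (prior count of 2) of each striatal marker was centred and scaled by its SD across libraries, then averaged over the markers. The fits were tested on simulated data. The members, gene lists and tests were chosen with earlier results of these data known. Any member could be named, but results of a few single genes are not reported here, though the counts over all 78 include them. Values by library were given for the 8 members of smallest p within each sex, the 5 for the interaction and for sex, the 10 highest per kb, and set textbook members, and further members were given so after their values were seen.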

Additional observations from a re-analysis of the deposited data

Results flagged for a closer look

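In each of the 4 groups 20 potassium channel genes and the summed level of all 78 were searched for a library far from the others of its group, by Dixon's test on the gap over the range. Of 84 combinations of value and group, 7 were past the critical value, where chance gives 4.2.

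The CD female E249 accounted for 5 of them. Kcnh8 was at 4.86 CPM in E249 and 0.420 to 0.684 CPM in the other CD females (gap over range 0.9404), Kcnn3 at 43.8 against 10.53 to 14.03 CPM (0.8947), Kcnj5 at 4.28 against 0 to 0.690 CPM (0.8388), Kcnip1 at 47.0 against 26.004 to 29.93 CPM (0.8132) and Kcnj10 at 139 against 76.3 to 93.7 CPM (0.7233). The same library had 1498 CPM of striatal markers and 1011 CPM of cortical excitatory markers, and the part of these in the values was not tested.

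In KD males, Kcnj13 was at 24.5 CPM in E59 and 3.501 to 9.372 CPM in the others (0.7207), beside 3936 CPM of choroid plexus markers in that library. Kcnj3 was at 96.0 CPM in E256 and 71.3 to 79.3 CPM in the other KD males (0.6738).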

How the results depend on the processing

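The log2 fold changes of 35 members, 73 over the 5 contrasts (those at an unadjusted p under 0.05 or of smallest p), were recomputed. None of these passed FDR 0.1 with a 1.5-fold change in the main fit, so none could fall below that threshold. A smaller value of the same sign counts as kept, so the number kept is no measure of stability. Of the recomputed values 2344 kept their direction and side of the threshold, 162 newly passed it and 3 turned: in females Kcna4 to -0.053 and Kcna5 to -0.093 with the striatal covariate, and averaged over the sexes Kcnj13 to -0.0034 in series 2. In females the members called (0) became 1 without a filter or with RUVg and 1 factor (0.217% of all genes with RUVg). They became 4 with RUVg and 2 factors (1.55%), 6 by the likelihood ratio test (1.4%) and 7 by DESeq2 (1.62%). The calls were 15 in series 1 alone (5.42%), 26 without E249 and E227 (12.2%) and 0 to 18 with 1 mouse left out (6.66% without E249 and 5.68% without E227). Those at an unadjusted p under 0.05 (19) became 30 in series 1, beside 9.11% of all genes higher and 8.32% lower. They became 5 in series 2 (1.53% and 1.17%) or with the striatal covariate (2.41% and 2.4%), and 36 without both mice (13.4% and 12.3%). With 1 mouse left out they were 13 to 29 (29 without E249, beside 10.8% and 7.89%). The median (-0.16) became -0.37 in series 1, beside 0.0051 for all genes. In males 0 were called throughout, and those at an unadjusted p under 0.05 (8) became 0 in series 2 (0.175% of all genes higher and 0.136% lower). With 1 mouse left out they were 2 to 11, with 2 without E58 or E66, 3 without E64 and 4 without E254. No share of all genes is given for these fits without 1 male or for the female fit without a filter. Their counts are therefore not a result about the potassium channel genes.

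Averaged over the sexes, the calls (0) became 1 with RUVg and 1 factor (0.971% of all genes) or at FDR 0.1 without a fold limit (0.37%). They became 4 with 2 factors (2.06%) or by the likelihood ratio test (2.36%), 6 by DESeq2 (2.24%), 14 in series 1 (5.55%) and 19 without both mice (7.83%). With 1 mouse left out they were 0 to 11, with 11 without E249 (5.04%) or E227 (4.19%). The 26 at an unadjusted p under 0.05 became 2 in series 2 (0.77% of all genes higher and 0.524% lower), 12 with the covariate (4.48% and 3.3%) and 41 without both mice (13.4% and 12.3%). For the interaction, 15 were called without both mice (3.56% of all genes). The 4 at an unadjusted p under 0.05 became 19 in series 1, beside 3.81% of all genes above 0 and 4.1% below. They became 2 in series 2 (0.388% and 0.556%) or with the filter of 10 counts in 4 libraries, and 1 with the covariate (0.67% and 0.856%). There were 24 without both mice (6.62% and 6.81%), 9 without E59 and E228 and 0 to 15 with 1 mouse left out. These were 0 without E62, E67 or E61, 1 without E58, E264 or E254, 2 without E68 or E207 and 9 without E59. They were 14 without E249 (3.57% and 2.57% of all genes) and 15 without E227 (2.62% and 4.29%). The interaction median (-0.072) became -0.24 in series 1, 0.063 in series 2, -0.21 without both mice and 0.052 without E59 and E228. For females against males, the calls (0) became 3 by the likelihood ratio test (1.83% of all genes) and 2 by DESeq2 (1.35%), in series 1 (0.476%) or without E59 and E228. They became 7 without both mice (3.24%) and 0 to 10 with 1 mouse left out (1 without E59, 10 without E227, beside 5.1%). The 15 at an unadjusted p under 0.05 became 4 in series 2 (2.72% of all genes higher and 0.802% lower), 2 with the covariate (2.04% and 1.62%) and 23 without both mice (8.89% and 9.7%). With 1 mouse left out they were 7 to 26 (7 without E61, 9 without E68, 26 without E227, beside 12.5% and 11.4%). Where no share of all genes stands beside a count, that count is not a result about the potassium channel genes. Causes of these shifts were not tested, beyond fewer mice in the fit. No paired analysis was possible because replicates are animals whose names are not shared between groups. Depth limits genes under 1 CPM, such as Kcnmb1 and Kcnk5.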
